A study of Mus musculus with 18 samples.

Results

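The nucleolar ribosome biogenesis genes described here are 40 mouse genes, chosen by symbol, that encode the factors that transcribe the ribosomal RNA precursor, modify and cut it, and assemble the small and large ribosomal subunits. All 40 were found among the 34896 genes of the expression table, and all 40 passed the filter of at least 1 TPM in at least 3 of 9 libraries, which left 13061 genes for testing. Noc3l passed through its GMP libraries alone. The series follows neutrophil development in bone marrow of C57BL/6 mice aged 6 to 12 weeks. RNA-seq was done on 3 wild type libraries each of granulocyte-monocyte progenitors (GMP), pre-neutrophils (preNeu) and mature neutrophils (matNeu). ChIP-seq, with 1 library per list, gave peaks of CHD4, the nucleosome-remodelling ATPase of the NuRD complex, in wild type and Gfi1-/- GMPs, and of the histone mark H3K4me2 in wild type GMP, preNeu and matNeu cells, and ATAC-seq gave a list of open sites in wild type neutrophils. Gfi1-/- mice lack GFI1, a transcriptional repressor of myeloid progenitors, and no RNA-seq of these cells was analysed here. The cells were sorted with antibodies against surface markers, GMPs as lineage-negative cells with cKIT, CD16/32 and CD34 and without SCA, and the neutrophil stages as cells with MAC-1 and GR1 that were split by cKIT, CXCR4 and CXCR2. The labels do not say whether libraries of a cell type came from separate animals, so that p-values measure the spread between these libraries only.

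Ribosomes are built in the nucleolus. RNA polymerase I copies the ribosomal RNA genes into a long precursor, small nucleolar ribonucleoproteins (snoRNPs) mark bases of it for methylation or pseudouridylation, and assembly factors fold and cut it while ribosomal proteins join. The pathway is known to be active in growing, dividing cells, and MYC is a known activator of many of its genes. Mature neutrophils no longer divide.

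Groups were taken from the titles, since another label of cell type differed from the title in 13 of 18 samples, all 9 RNA-seq libraries among them. The markers followed the titles. Cd34 was at 425 to 498 TPM in the GMP libraries and at 3.27 TPM or below in the others, Ltf was highest in preNeu and Cxcr2 was highest in matNeu, while Cxcr4 was at 38.6 to 58.7 TPM in all 9. Markers of other cells also differed between the groups. The 3 eosinophil markers summed to 800 to 1074 TPM in GMP and to 0.405 TPM or below in matNeu, and the 3 mast cell or basophil markers to 406 to 521 TPM in GMP and 1.73 to 6.50 TPM in matNeu. The B cell markers went different ways. Cd79a was at most 0.603 TPM in GMP, at 5.68 to 8.58 TPM in preNeu and at 16.2 to 33.1 TPM in matNeu, and Ms4a1 ran from 0.523 TPM or below in GMP to 8.33 to 16.0 TPM in matNeu. Cd79b was highest in GMP, at 77.9 to 93.7 TPM, with 17.3 to 27.4 TPM in preNeu and 25.1 to 53.9 TPM in matNeu. The part of these markers in the changes below was not tested. The 4 monocyte or macrophage markers summed to 2824 to 3448 TPM in GMP, 1676 to 2216 TPM in preNeu and 1034 to 1421 TPM in matNeu. Most of this was Ly6c2, with means of 2962, 1866 and 936 TPM, and the markers went different ways. Cx3cr1 was also highest in GMP, with means of 25.8, 1.51 and 0.853 TPM. Csf1r had means of 204, 13.8 and 304 TPM and C1qa of 1.42, 24.9 and 6.68 TPM. Of the defining markers, Epx and Ear1 of eosinophils were listed at 0 in all matNeu libraries. The 4 erythroid markers summed to at most 6.94 TPM in any library, the 3 T cell markers to at most 14.3 TPM, and the 2 megakaryocyte markers to 33.0 to 48.9 TPM in GMP and at most 4.66 TPM elsewhere.

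The RNA of the ribosome biogenesis genes fell at both steps of neutrophil development, and in most of the genes the first step held the larger part of the fall. Together the 40 genes held 8603, 8666 and 8482 TPM in the 3 GMP libraries, where TPM is a transcript level per length, scaled to the same total in every library. They held 1065, 1139 and 1240 TPM in preNeu and 372, 313 and 400 TPM in matNeu. The 3 cell types did not overlap. The summed level was thus 8584 ± 93.4 TPM (SD, n = 3) in GMP, 7.48 times that of preNeu at 1148 ± 87.7 TPM and 23.7 times that of matNeu at 362 ± 44.4 TPM. In bulk samples, fewer cells that express a gene and less of its RNA per cell cannot be told apart.

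**Figure D1:**
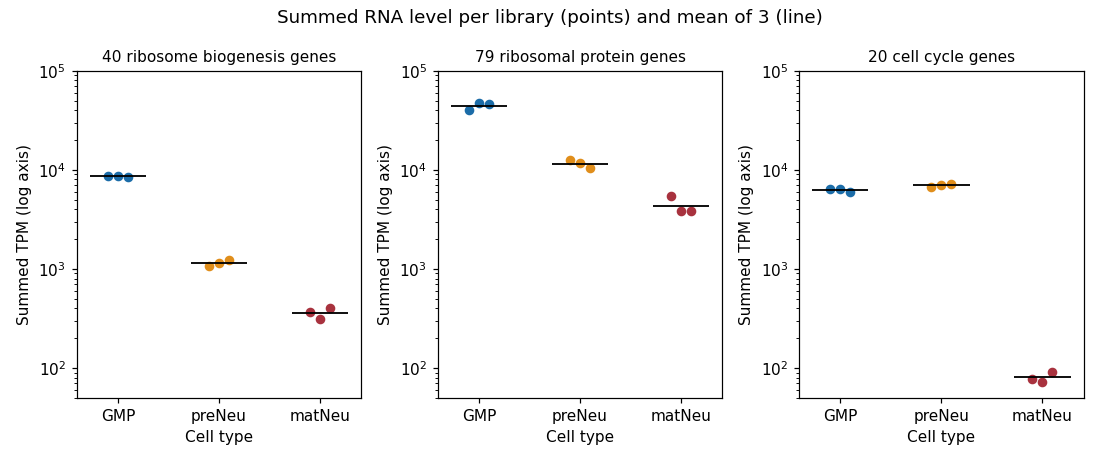
Summed TPM on a log axis of the 40 ribosome biogenesis genes, 79 cytosolic ribosomal protein genes and 20 cell cycle genes, by cell type. Each point is 1 library and each line the mean of 3. The ribosome biogenesis sum fell from 8584 to 1148 to 362 TPM, whereas the cell cycle sum was 6287 TPM in GMP and 7023 TPM in preNeu before it reached 80.9 TPM in matNeu.

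From GMP to preNeu, 40 of 40 genes were called lower (limma on log2(TPM + 1), two-sided, Benjamini-Hochberg adjusted p under 0.05 over all genes tested), against 44.3% of all genes tested. All 40 were lower in every preNeu library than in any GMP library, a separation that 48.4% of all genes tested showed in this direction. The log2 changes ran from -4.31 to -1.12 with a median of -2.74, against a median of -0.52 over all genes, and 29 of the 40 lay in the lowest 10% of all changes. From preNeu to matNeu, 33 were called lower, against 39.8% of all genes, 1 was called higher, against 22.9%, and 6 were not called, with a median change of -2.00 against -0.32 over all genes. In this step 34 of 40 were lower in every matNeu library than in any preNeu library (41.9% of all genes). From GMP to matNeu, 39 were called lower (54.1% of all genes) and 39 separated without overlap in that direction (54.8%). Their median change was -4.55 against -0.92 over all genes, and Polr1a alone was called higher, where 22.8% of all genes were. The 3 comparisons share libraries and are not independent of each other. In 34 of the 40 genes every GMP library was above every preNeu library and every preNeu library above every matNeu library, an order that 25.2% of all genes tested showed.

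**Figure D2:**
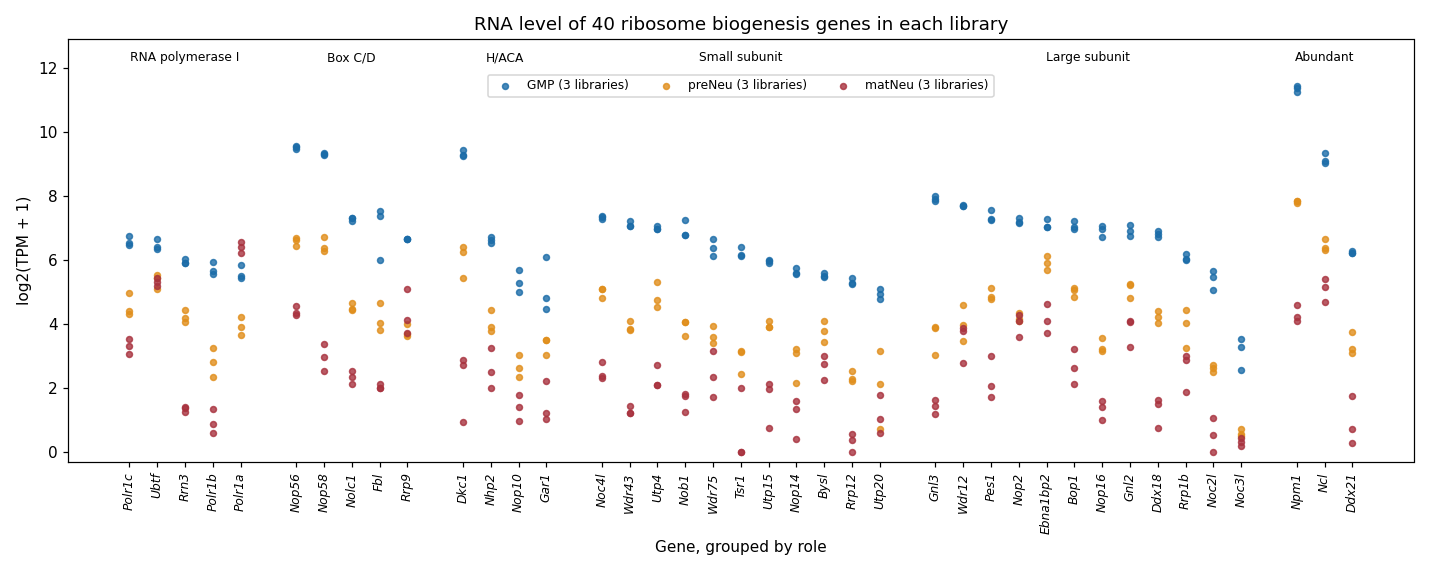
RNA level of each of the 40 genes as log2(TPM + 1), grouped by role and, within a role, by mean level in GMP. Each point is 1 library, with 3 libraries per cell type. The GMP libraries were above all preNeu libraries in all 40 genes, and Polr1a was the only gene with all matNeu libraries above all GMP libraries.

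The median-of-ratios scaling moved the median of all genes from -0.92 to -0.20 and that of the 40 genes from -4.55 to -3.83 between GMP and matNeu. A few genes take a large share of TPM in these cells. The 10 most abundant genes held 9.15 to 9.78% of TPM in GMP, 24.1 to 28.3% in preNeu, where Ngp, Chil3 and Ltf were among them, and 12.6 to 15.8% in matNeu.

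Among the 39 genes that fell from GMP to matNeu, the first step made up 37.1 to 123% of the log2 fall, with a median of 58.6%, and more than 50% in 28 of them. Values above 100% mark a level that was higher in matNeu than in preNeu. Rrn3 had the lowest share and Rrp9 the highest, both named after their values were seen. The shares were taken with a pseudocount of 1. By ratios of mean TPM the second step was the larger in Npm1 (11.6 then 11.8), Noc2l (8.11 then 9.95), Rrp12 (9.54 then 15.5) and Ddx21 (7.87 then 8.69). The other genes above 50% kept the larger ratio in the first step. Scaling without the 10 most abundant genes of each cell type gave median changes of -2.45 and -2.34 in the 2 steps.

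**Figure D3:**
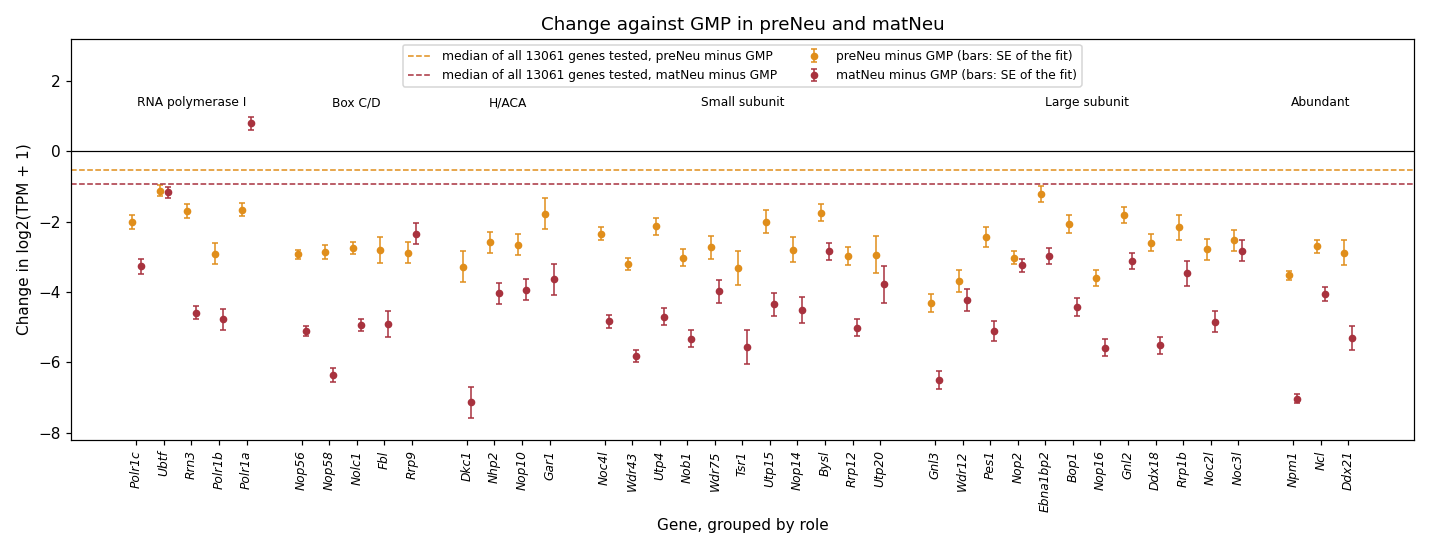
Change in log2(TPM + 1) of each gene against GMP, in preNeu and in matNeu, with the standard error of the limma fit as bars. Dashed lines are the medians of all 13061 genes tested, -0.52 in preNeu and -0.92 in matNeu. All 40 preNeu points lie below their line, and Polr1a is the only gene above 0 in matNeu.

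RNA polymerase I genes had the smallest median change of the 6 roles from GMP to matNeu, -3.27, and held the only rise. The medians of the other roles ran from -5.31 to -3.99. Polr1a, the largest subunit of RNA polymerase I, was at 43.7, 42.4 and 56.8 TPM in GMP, 11.7, 14.1 and 17.4 TPM in preNeu and 92.8, 73.6 and 84.1 TPM in matNeu. The matNeu libraries were the highest and the preNeu libraries the lowest, with no overlap between any of the cell types. Polr1a fell by 1.66 on the log2 scale (SE 0.19, adjusted p = 3.24e-05, limma) from GMP to preNeu and then rose by 2.47 (SE 0.19, adjusted p = 8.61e-07), which left it 0.80 higher in matNeu than in GMP (SE 0.19, adjusted p = 0.00246). The rise from GMP was 0.72 to 1.67 under every alternative fit run. When a minimum log2 change of 1 was also asked for, Polr1a at 0.80 was not called. Its exons overlap those of Gm26628, an antisense gene that was not analysed here.

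Polr1b, the second largest subunit, did not share that rise. It was at 45.7, 60.1 and 48.9 TPM in GMP, 6.02, 8.48 and 4.04 TPM in preNeu and 0.515, 0.847 and 1.52 TPM in matNeu, a fall at each step without overlap. Its change from GMP to matNeu was -4.77 (SE 0.30, adjusted p = 8.58e-08, limma), the largest of this role. In matNeu the mean level of Polr1a was thus 83.5 TPM and that of its partner Polr1b 0.961 TPM, where in GMP they had been 47.6 and 51.5 TPM.

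Polr1c, a subunit shared with RNA polymerase III, had the highest level of this role in GMP. It was at 86.4, 92.2 and 105 TPM in GMP, 20.3, 30.3 and 18.9 TPM in preNeu and 8.95, 7.41 and 10.5 TPM in matNeu, and its change from GMP to matNeu was -3.27 (SE 0.21, adjusted p = 1.13e-07, limma). Ubtf, the factor that binds the ribosomal RNA genes and keeps them open, was at 84.5, 99.4 and 80.6 TPM in GMP, 33.1, 45.7 and 42.2 TPM in preNeu and 39.1, 35.1 and 42.1 TPM in matNeu. Its GMP libraries were above all others, and its preNeu and matNeu libraries overlapped. Ubtf fell by 1.12 from GMP to preNeu (SE 0.16, adjusted p = 1.78e-04, limma) and its value from preNeu to matNeu was -0.05 (SE 0.16, adjusted p = 0.825). The difference of Ubtf between matNeu and GMP, -1.16 (adjusted p = 5.69e-05), was -0.29 with adjusted p = 0.0653 under median-of-ratios scaling. Rrn3, which recruits RNA polymerase I to its promoter, fell at both steps.

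Box C/D snoRNPs methylate ribosomal RNA. The 5 genes of box C/D snoRNPs and their assembly were all called lower from GMP to preNeu, against 44.3% of all genes tested. Their log2 changes lay in a narrow range from -2.93 to -2.75. Nop56, a core protein of these particles, was at 703, 728 and 745 TPM in GMP, 84.9, 103 and 96.7 TPM in preNeu and 19.1, 18.3 and 22.7 TPM in matNeu. Nop58, its partner in the same particle, was at 628, 652 and 621 TPM, then 76.5, 81.4 and 104 TPM, then 6.83, 4.84 and 9.40 TPM. Both genes fell at each step without overlap, and Nop58 fell further, with changes from GMP to matNeu of -6.35 (SE 0.20, adjusted p = 8.44e-10, limma) against -5.11 for Nop56 (SE 0.13, adjusted p = 2.18e-10); the difference between the genes was not tested.

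Rrp9, a protein that binds the U3 particle needed for early cuts of the precursor, was the exception in this role. It was at 98.5, 99.2 and 99.6 TPM in GMP, 11.4, 11.8 and 14.9 TPM in preNeu and 33.3, 16.3 and 12.0 TPM in matNeu. The first matNeu library was the highest of the last 2 stages, and these stages overlapped. Its value from preNeu to matNeu was 0.54 (SE 0.30, adjusted p = 0.14, limma), and 0.14 with adjusted p = 0.568 without the first matNeu library. It was called higher, at 0.84 with adjusted p = 0.0215, without matNeu replicate 3, and at 0.90 with adjusted p = 0.0241 under median-of-ratios scaling. Exons of Rrp9 overlap those of Parp3 on the other strand, and Parp3 was called higher in matNeu than in preNeu, by 1.44 (SE 0.28, adjusted p = 0.00109, limma). The library kit named in the methods keeps the strand of the RNA, whereas use of strand in the quantification is not given in the sources used here. Whether reads of the 2 genes were shared was not tested. In the annotation, exons of 16 of the 40 genes overlap those of a gene on the other strand.

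H/ACA snoRNP proteins, which convert uridine to pseudouridine, were called lower in 4 of 4 genes at both steps. Of all genes tested, 44.3% and 39.8% were. Dkc1, the pseudouridine synthase, was at 687, 616 and 599 TPM in GMP, 84.1, 42.2 and 74.4 TPM in preNeu and 5.58, 0.920 and 6.30 TPM in matNeu. Its change of -7.13 from GMP to matNeu (SE 0.44, adjusted p = 8.58e-08, limma) was the largest fall of the 40 genes at the pseudocount of 1, and the second matNeu library lay well below the other two. Without that library the change of Dkc1 was -6.51 and that of Npm1 -7.0, and with a pseudocount of 0.1 Tsr1 fell further, at -7.88 against -7.57 for Dkc1. Gar1, a small protein of the same particle, was at 21.0, 26.8 and 67.4 TPM in GMP, 10.2, 10.2 and 7.21 TPM in preNeu and 1.04, 1.32 and 3.61 TPM in matNeu. The third GMP library was far above the others, yet no cell types overlapped, and the change from GMP to matNeu was -3.64 (SE 0.44, adjusted p = 1.77e-05).

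Factors of the small subunit were called lower in 11 of 11 genes from GMP to preNeu, against 44.3% of all genes tested. From preNeu to matNeu 10 of 11 were called lower, against 39.8%. Noc4l, an assembly factor with the highest GMP level of this role, was at 162, 165 and 155 TPM in GMP, 33.0, 33.2 and 27.0 TPM in preNeu and 3.99, 4.23 and 5.97 TPM in matNeu. Wdr43, a protein of the processome that forms on the precursor, had the largest change of this role at the pseudocount of 1, going from 133, 147 and 133 TPM to 13.1, 13.3 and 16.0 TPM and then to 1.35, 1.33 and 1.71 TPM. Neither gene overlapped between cell types, and the change of Wdr43 from GMP to matNeu was -5.82 (SE 0.18, adjusted p = 6.62e-10, limma). With a pseudocount of 0.1 it was -6.47, behind Tsr1 at -7.88 and Rrp12 at -7.09, and without matNeu replicate 3 it was -5.89, behind Tsr1 at -6.22.

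Bysl, which acts late in small subunit assembly, changed least in this role. It was at 43.1, 46.7 and 44.3 TPM in GMP, 9.86, 12.7 and 16.1 TPM in preNeu and 3.80, 7.04 and 5.73 TPM in matNeu, again without overlap, with a change from GMP to matNeu of -2.84 (SE 0.24, adjusted p = 1.17e-06, limma). Its exons overlap those of Ccnd3, a cyclin gene on the other strand, which rose from 348 TPM in GMP to 1762 TPM in preNeu and 1127 TPM in matNeu (changes from GMP of 2.34 and 1.68, SE 0.12 each). As for Rrp9, shared reads were not tested. Exact zeros in matNeu touched 3 genes, named after their values were seen. Tsr1, a GTPase-like factor, was listed at 0 in matNeu replicates 1 and 2 and at 2.97 TPM in replicate 3. Rrp12 was listed at 0 in matNeu replicate 2 and at 0.308 and 0.486 TPM in the others, and the same library listed Noc2l, a large subunit factor, at 0.

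Factors of the large subunit were called lower in 12 of 12 genes from GMP to preNeu, against 44.3% of all genes tested. From preNeu to matNeu 9 of 12 were called lower, against 39.8%. Gnl3, the nucleolar GTPase nucleostemin, was at 254, 237 and 230 TPM in GMP, 7.16, 13.6 and 14.1 TPM in preNeu and 1.26, 2.08 and 1.70 TPM in matNeu. It had the highest GMP level and the largest fall of this role, and its fall of 4.31 from GMP to preNeu (SE 0.25, adjusted p = 3.77e-07, limma) was the largest of all 40 genes in that step. Noc3l, at the lowest level of the 40, was at 8.73, 10.6 and 4.95 TPM in GMP, 0.644, 0.486 and 0.420 TPM in preNeu and 0.231, 0.350 and 0.147 TPM in matNeu, with no overlap. Its change of -2.82 from GMP to matNeu (SE 0.29, adjusted p = 5.00e-06) rests on a gene whose libraries of both later stages lay below the 1 TPM of the filter, which only GMP met. It was -4.55 with a pseudocount of 0.1, and the mean level in GMP was 33.4 times that in matNeu. From preNeu to matNeu Noc3l had -0.29 (adjusted p = 0.414), and -0.87 (adjusted p = 0.159) with that pseudocount.

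Besides Rrp9, Ubtf and Noc3l, the genes not called from preNeu to matNeu were Nop2, Wdr12 and Utp20, named after their values were seen. Nop2, a methyltransferase of the large subunit RNA, was at 16.0, 19.2 and 16.8 TPM in preNeu and 15.9, 11.0 and 18.3 TPM in matNeu. Its value in this step was -0.21 (SE 0.19, adjusted p = 0.351, limma), after a fall of 3.02 from GMP. It was called lower in this step, at -0.47 with adjusted p = 0.0446, when TPM was scaled without the 10 most abundant genes of each cell type, and was at 0.13 with adjusted p = 0.509 under median-of-ratios scaling. Wdr12, of the PeBoW complex, had -0.53 (adjusted p = 0.177), while its partners Pes1 and Bop1 fell by 2.66 and 2.35 (adjusted p = 1.31e-05 and 9.95e-06, limma). Utp20, a scaffold of the small subunit processome, had -0.85 (adjusted p = 0.192), with -1.49 and adjusted p = 0.0119 without preNeu replicate 1 and -0.27 and adjusted p = 0.647 without preNeu replicate 3.

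The abundant nucleolar proteins were called lower at both steps in 3 of 3 genes, against 44.3% and 39.8% of all genes tested. Npm1, the histone chaperone nucleophosmin, was at 2779, 2441 and 2612 TPM in GMP, 217, 229 and 227 TPM in preNeu and 16.2, 17.6 and 23.1 TPM in matNeu. Its falls of 3.53 and 3.51 at the 2 steps were nearly equal (SE 0.13 each, adjusted p = 1.45e-08 and 5.99e-09, limma). Npm1 made up 28.2 to 32.3% of the summed TPM of the 40 genes in GMP, 18.3 to 20.4% in preNeu and 4.37 to 5.78% in matNeu. Ncl, nucleolin, was at 542, 650 and 518 TPM in GMP, 78.5, 81.3 and 101 TPM in preNeu and 24.9, 34.8 and 41.5 TPM in matNeu, and fell by 4.06 in all (SE 0.19, adjusted p = 9.20e-09). Both genes ran in 1 order without overlap. The expression table also lists 8995 processed pseudogenes, and whether reads of near-identical copies were shared with these genes was not tested.

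Most other genes of the pathway were also called lower. Of 134 further ribosome biogenesis genes listed, 132 were tested. From GMP to preNeu 122 of them were called lower, against 44.3% of all genes tested. In the second step 102 were called lower and 2 higher, against 39.8% and 22.9%, and from GMP to matNeu 129 lower, against 54.1%, with a median change of -3.27. In the comparisons with GMP none was called higher by limma, and none was higher at an unadjusted p under 0.05. The 2 called higher in the second step were Utp14a, at 1.43 (SE 0.18), and Exosc4, at 0.78 (SE 0.16), named after their values were seen. Like Polr1a, both were lower in preNeu than in GMP, with changes of -1.57 and -1.18. Unlike Polr1a, neither was higher in matNeu than in GMP, at -0.14 and -0.41. By role, 11 of 12 further RNA polymerase I genes, 10 of 10 snoRNP genes, 46 of 47 small subunit genes and 62 of 63 large subunit genes were called lower in matNeu than in GMP. The largest falls of the 132 were those of Pa2g4, a nucleolar growth regulator, at -6.59 (SE 0.17), and Ppan, a large subunit factor, at -6.54 (SE 0.32). At the other end were Zfp622, at 0.23 (adjusted p = 0.648, limma), and Ttf1, which terminates RNA polymerase I transcription, at -0.13 (adjusted p = 0.605).

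Genes for cytosolic ribosomal proteins had smaller median changes than the 40 genes, but not than the 132 further genes. The medians of the 132 were -1.66 from GMP to preNeu, -1.59 from preNeu to matNeu and -3.27 from GMP to matNeu. Those of the ribosomal protein genes were larger in both comparisons with GMP and nearly equal in the second step. These differences were not tested. From GMP to preNeu 77 of 79 were called lower (44.3% of all genes tested) with a median of -1.86. In the second step 72 were called lower (39.8%) and 3 higher (22.9%) with a median of -1.55, and from GMP to matNeu 77 lower (54.1%) with a median of -3.59. Their summed TPM, at 44490 ± 4090 (SD, n = 3) in GMP, was 10.2 times that of matNeu. Many of these genes have near-identical pseudogenes, which makes single values uncertain.

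Genes of the cell cycle were split in the first step. Of 20 tested, 9 were called higher (14.7% of all genes tested) and 7 lower (44.3%) in preNeu than in GMP, with a median of 0.7. The 7 were Mcm2 to Mcm7, the subunits of the replicative helicase, and Pcna, the clamp of the DNA polymerases, with changes of -1.63 to -0.63, in the direction of the ribosome biogenesis genes. None of the 40 ribosome biogenesis genes was called higher in this step, against 14.7% of all genes. Mki67, a marker of cycling cells that was named after its values were seen, was at 72.4, 73.2 and 64.3 TPM in GMP, 186, 194 and 238 TPM in preNeu and 4.73, 3.30 and 5.56 TPM in matNeu, a rise of 1.54 in the first step (SE 0.18, adjusted p = 4.69e-05, limma). Mcm2, named afterwards like the other 6, fell by 1.48 in that step (adjusted p = 9.47e-04). From preNeu to matNeu 20 of 20 were called lower (39.8% of all genes), with a median of -6.98. The difference between the lists was not tested.

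Myc, which encodes the activator named above, was at 386, 463 and 438 TPM in GMP, 17.2, 26.3 and 31.4 TPM in preNeu and 0.0890, 0.468 and 0.349 TPM in matNeu. No library of a later stage reached any of an earlier stage. Its changes were -4.09 from GMP to preNeu and -8.37 from GMP to matNeu (SE 0.23 each).

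Peaks were then set beside the promoters. A promoter began 2 kb before the annotated gene start (GENCODE M21, build GRCm38) and ended 500 bp after it. Each list is from 1 library, so that no test was made. CHD4 peaks were rare at these promoters. A CHD4 summit in wild type GMPs lay in the promoter of 1 of 40 genes, against 12.2% of the 11865 protein-coding genes tested in RNA-seq, and in Gfi1-/- GMPs in 0 of 40, against 2.35%. The wild type list held 35790 peaks and the Gfi1-/- list 7316. The 1 gene was Nop16, with a peak of 187 bp and a fold enrichment of 6.15, below the median of 7.45 over all promoter peaks. With any annotated transcript start in place of the gene start, 2 of 40 genes had a summit, against 18.0% of all.

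CHD4 peaks were also few around these genes. Within the gene and 10 kb on either side, 6 of 40 had a CHD4 peak in wild type GMPs, against 43.3% of all genes, namely Fbl, Nop16, Pes1, Polr1a, Rrp12 and Wdr75, and Rrp12 and Wdr75 also had 1 in Gfi1-/- GMPs, against 14.3%. A longer gene gives a longer stretch, and these shares were not matched for gene length. Among all genes called lower in matNeu than in GMP, 9.08% had a CHD4 promoter summit in wild type GMPs, and among those called higher 20.5%.

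**Figure D4:**
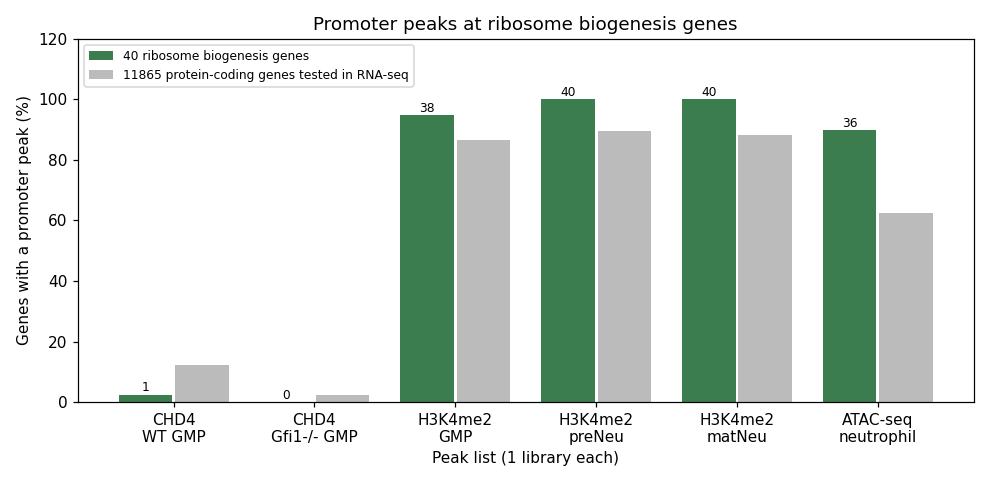
Share of genes with a promoter peak in each of 6 lists, for the 40 ribosome biogenesis genes (numbers above bars are genes) and for 11865 protein-coding genes tested in RNA-seq. CHD4 peaks lay at 1 and 0 of the 40 genes, H3K4me2 peaks at 38, 40 and 40, and ATAC-seq peaks at 36.

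H3K4me2, a mark of promoters and enhancers that are active or poised, was found at nearly all of these promoters at every stage. It marked 38 of 40 in GMP, against 86.7% of all genes, 40 of 40 in preNeu, against 89.4%, and 40 of 40 in matNeu, against 88.1%. The genes without a promoter peak in GMP were Dkc1 and Nolc1. With any annotated transcript start in place of the gene start, 40 of 40 had a peak in GMP, against 92.2% of all genes. A −log10 q-value of at least 5 kept 11 of 40 in GMP (36.6% of all genes) and all 40 in both later lists (86.6% and 84.8%). Among genes whose RNA fell by at least as much as the median of these 40, 93.2% had an H3K4me2 promoter peak in matNeu.

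The promoter peaks of Npm1 had fold enrichments over background of 3.24 in GMP, 9.96 in preNeu and 12.5 in matNeu, and those of Polr1a of 3.30, 11.4 and 8.89. Among these genes the highest enrichment in each list was at Tsr1, again named afterwards, at 4.83, 17.5 and 17.2. Enrichments of different lists are not on 1 scale, as the medians over all promoter peaks show, which were 3.58, 10.5 and 8.52 beside 3.50, 11.1 and 9.76 for these genes. From preNeu to matNeu the enrichment ratio had a median of 0.858 in these genes, with a range of 0.673 to 1.25, and of 0.810 over all 10412 genes with both peaks. The enrichment at these promoters was above the median of all promoter peaks in 16 of 38 genes in GMP, 26 of 40 in preNeu and 30 of 40 in matNeu.

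**Figure D5:**
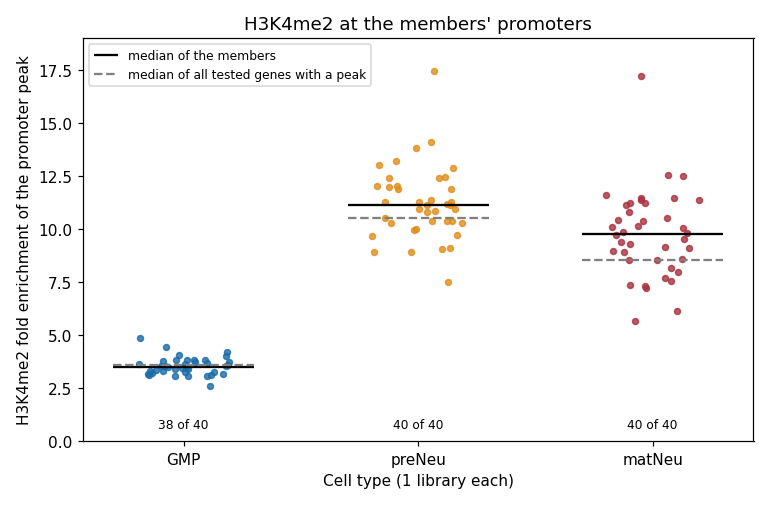
Fold enrichment of the strongest H3K4me2 peak at each gene's promoter, by cell type. Points are genes, solid lines their medians (3.50, 11.1 and 9.76) and dashed lines the medians of all tested genes with a promoter peak (3.58, 10.5 and 8.52). Each cell type is 1 library, and the 3 scales differ.

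The lists of open sites from preNeu and from matNeu held identical peaks and were used as 1 list. An ATAC-seq peak lay in the promoter of 36 of 40 genes, against 62.5% of all genes, and Dkc1, Ubtf, Gnl2 and Tsr1 had none. At a −log10 q-value of at least 5 it was 19 of 40, against 38.1%. With any annotated transcript start in place of the gene start it was 38 of 40, against 68.7%. The median enrichment was 4.17, against 4.47 over all promoter peaks.

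Polr1a, the gene that rose, lies on chromosome 6 at chr6:71909053-71984935 on the plus strand (GRCm38), and at 75.9 kb is a long gene. It had 6 CHD4 peaks in wild type GMPs within the gene and 10 kb on either side, and none in Gfi1-/- GMPs. The Gfi1-/- list was shorter throughout, with 7316 peaks against 35790. Of all genes, 14.3% had a peak over such a stretch in Gfi1-/- GMPs, against 43.3% in wild type. The peak with the greatest enrichment over background, at 14.6, had its summit 21262 bp downstream of the gene start, and the next, at 11.8, lay 41777 bp downstream; both are inside the gene. H3K4me2 peaks over the same stretch numbered 3 in GMP, 8 in preNeu and 9 in matNeu. A peak centred 17775 bp into the gene in preNeu and 17709 bp in matNeu, with enrichments of 5.57 and 7.30, had no counterpart in the GMP list, where enrichments were lower throughout. Ptcd3 starts within 1 kb of Polr1a on the other strand, and unlike Polr1a it fell, from 119 ± 17.8 TPM (SD, n = 3) in GMP to 11.0 ± 2.61 TPM in matNeu, a change of -3.34 (SE 0.20, adjusted p = 7.54e-08, limma).

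Position and sequence of the genes were compared last. A start of another protein-coding gene on the other strand lay within 1 kb in 14 of 40 genes, against 16.8% of all genes. Small nucleolar RNA genes lay inside 7 of 40 on the same strand, against 1.86% of all, namely Ncl, Nop56, Nop58, Dkc1, Wdr43, Gnl3 and Tsr1, with 21 such genes in all. Nop56 at chr2:130274430-130279313 (GRCm38) held 5 of them, among them Snord57 and Snord110.

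Promoter windows from RefSeq (GRCm38.p6), 250 bases before to 50 after the start, were found for 35 of the 40 genes. The E-box CACGTG, the known site of MYC and of other factors of its class, was in 7 of 35 windows (20.0%), against 7.15% of all 32851 windows and 10.2% of 9331 tested genes with 1 window each. CCGGAAG, a core of ETS factor sites, was in 11 (31.4%), against 8.86% and 19.3%. TCGCGA was in 4 (11.4%), against 2.50% and 5.25%, and AAATCA, the core bound by GFI1, in 3 (8.57%), against 14.0% and 8.86%. Both strands were searched, and no 2 different motifs overlapped in these windows. Nop2, Rrn3, Tsr1 and Utp4 held both CACGTG and CCGGAAG (11.4%), against 0.846% of windows and 1.92% of tested genes. A match of letters does not show that a factor binds.

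The stretches below run 5′ to 3′ along the gene's strand, from 100 bases before the RefSeq start, with the E-box and the ETS core, on either strand, in capitals. Nop2, Rrn3 and Utp4 are shown as 3 of the 4 genes that held both motifs and Pes1 for an E-box at its start, and their changes from GMP to matNeu were -5.10 to -3.24. The fourth, Tsr1 with a change of -5.56, is not shown because its E-box began at base 25 after the start, past the end of these stretches. Dkc1, with the largest fall at the pseudocount of 1 (-7.13), and Polr1a, with the only rise, are shown as the ends of the range of changes. Their windows held neither motif, like most of the 35 windows.
Nop2 at chr6:125131783-125131882, plus strand: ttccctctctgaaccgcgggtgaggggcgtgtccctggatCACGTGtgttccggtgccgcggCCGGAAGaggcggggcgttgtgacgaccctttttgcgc
Rrn3 at chr16:13780599-13780723, plus strand: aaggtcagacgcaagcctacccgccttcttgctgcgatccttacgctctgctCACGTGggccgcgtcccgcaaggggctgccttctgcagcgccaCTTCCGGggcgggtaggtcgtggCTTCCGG
Utp4 at chr8:106893540-106893660, plus strand: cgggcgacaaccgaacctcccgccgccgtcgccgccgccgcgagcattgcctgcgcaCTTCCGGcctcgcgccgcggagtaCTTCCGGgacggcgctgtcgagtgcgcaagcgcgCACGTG
Pes1 at chr11:3963875-3963982, plus strand: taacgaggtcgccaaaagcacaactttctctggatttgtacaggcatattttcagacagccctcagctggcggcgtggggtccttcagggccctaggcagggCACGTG
Dkc1 at chrX:75095754-75095853, plus strand: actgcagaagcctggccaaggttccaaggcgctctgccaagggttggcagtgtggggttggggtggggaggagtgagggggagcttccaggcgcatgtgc
Polr1a at chr6:71908953-71909052, plus strand: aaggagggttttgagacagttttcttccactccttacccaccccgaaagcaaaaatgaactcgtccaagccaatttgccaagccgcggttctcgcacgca

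In Nop2 the E-box began 60 bases before the start and in Rrn3 48 bases before it, with another 215 bases before, outside the stretch shown. In Utp4 it began at base 16 after the start and in Pes1 at base 3. The E-box was in 6 of 20 windows of subunit factors, and the changes of those 6 genes from GMP to matNeu were -5.82 to -3.24. It was in 1 of 5 windows of RNA polymerase I genes and in 0 of 8 windows of snoRNP proteins and their assembly. The window of Rrp9 lay 1346 bases from its annotated gene start.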

How the data were processed

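RNA-seq, ChIP-seq and ATAC-seq of bone marrow cells were used, grouped by title. The deposited expression table holds TPM of each gene in each library. The submitters' processing notes name kallisto 0.44.0, Trimmomatic 0.36, BWA 0.7.17, MACS2 2.1.0 and build mm10, while the paper's methods describe TopHat, HTSeq and DESeq. TPM keeps no depth, so no count test was run and the depth is unknown. Each deposited peak carries a fold enrichment, which is a linear ratio, and a −log10 q-value. The peak lists used fit GRCm38 chromosome lengths. Lists for H3K4me3 and GFI1 had peaks beyond chromosome ends and were not used.

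Changes were fitted on log2(TPM + 1) (pseudocount 1, which understates changes of low genes) with limma 3.58.1 in R 4.3.3, cell type as the only term and a variance trend, over 9 libraries in 1 fit, with genes of at least 1 TPM in at least 3 libraries and Benjamini-Hochberg adjustment over all 13061 genes. The script was tested on simulated data. Peaks and promoters were joined with Python 3.11.15, CHD4 by summit and the others by 1 bp of overlap. No column was left unused (0 columns). Members, roles and lists were chosen with earlier results of these data known, and the lists are not independent evidence. Values for every library were given, in each role, for the gene with the highest mean TPM in GMP and those with the largest and smallest change from GMP to matNeu, and for genes that rose; others are marked as named after their values were seen. Of the further pathway genes, the largest 2 changes in each direction were named. A marker gene of 1 list and its summed level are not reported here.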

Additional observations from a re-analysis of the deposited data

How the results depend on the processing

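Over 2037 values of single genes under alternative pseudocounts, filters, scalings, models and left-out libraries, 2028 kept direction and side of the threshold. The median-of-ratios scaling turned Nop2 (0.13) and Ubtf (0.32) from preNeu to matNeu, and with each library left out in turn Ubtf ran from -0.18 to 0.05 in that step, above 0 at 0.05 without preNeu replicate 2 and at 0.02 without matNeu replicate 2. None of these was called. The other 5 values gained or lost a call. Nop2 was called lower from preNeu to matNeu, at -0.47, without the 10 most abundant genes, Rrp9 higher in that step under 2 alternatives (0.90 and 0.84), and Utp20 lower without preNeu replicate 1 (-1.49), while Ubtf lost its call from GMP to matNeu with the median of ratios (-0.29). The count of genes called was 39 to 40 from GMP to preNeu, 34 to 35 from preNeu to matNeu and 39 to 40 from GMP to matNeu under all alternatives. A minimum log2 change of 1 took the call from Polr1a between GMP and matNeu. Leaving out a library gave 40, 34 to 35 and 40 calls and medians of -2.76 to -2.60, -2.15 to -1.85 and -4.72 to -4.55. The median from GMP to preNeu was -2.23 with the median of ratios and -2.45 without the 10 most abundant genes of each cell type. From preNeu to matNeu it was -2.42 with a pseudocount of 0.1 and -2.34 without those genes, and from GMP to matNeu -5.04 with that pseudocount and -3.83 with the median of ratios. The deviations of same-numbered libraries from their group means had correlations of -0.0394 to 0.123. Only that of preNeu 3 with matNeu 3 was above 0.1. Such values cannot tell whether these libraries share an animal, which the labels do not say. The replicate block gave 40, 34 and 40 calls. Of the peak counts, CHD4 in wild type GMP went from 1 to 2 with any transcript start, and at a −log10 q-value of 5 H3K4me2 in GMP went from 38 to 11 and ATAC-seq from 36 to 19 genes. The cause of these shifts was not tested. Each peak list is 1 library, and TPM gives no depth behind low values.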
